A study of Mus musculus with 12 samples.

Results

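Accessible chromatin was described at 6 mouse genes that encode somatic transcription factors: Runx1, Runx2 and Runx3 of the Runx family, and Cebpa, Cebpb and Cebpd of the C/EBP family. A region was assigned to a gene when it overlapped the gene's span in the mm10 build or lay within 10 kb of either end, which gave 65 of the 115000 counted regions. Of the 18088 protein-coding genes with at least 1 such region, these are 6. Runx1 had 26 regions, Runx2 had 29, Runx3 had 3, Cebpa had 2, Cebpb had 4 and Cebpd had 1. Regions were read singly and as a sum per gene, and the sum of a gene describes its chromatin, since transcripts were not measured here.

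The assay was ATAC-seq, which uses Tn5 transposase to tag accessible DNA with adapters, so that reads pile up where chromatin is open. The cells were mouse embryonic fibroblasts (MEF), unsorted, and 3 groups sorted as positive for the Oct4-GFP reporter during or after reprogramming: Stage 1 (day 6), Stage 2 (a further 4 days) and established induced pluripotent stem cells (iPSC). Each of the 4 groups had 3 libraries, and all 12 came from the mixed strain background C57BL/6 x 129. The protocol is labelled 3c enhanced reprogramming, and what vector carried the reprogramming factors, how many cell clones there were and whether animals were pooled is not given in the sources used here. Since MEF were the group without sorting, the sort and the change of stage cannot be told apart in any comparison with MEF.

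Runx proteins bind DNA through the runt domain as heterodimers with Cbfb. Runx1 is best known as a regulator of blood formation, Runx2 of bone-forming cells and Runx3 of T cells and sensory neurons, and Runx genes are commonly transcribed from a distal and a proximal promoter. C/EBP proteins are basic leucine zipper factors, known for the differentiation of fat cells, liver and myeloid blood cells, and for the acute phase and inflammatory response. Motifs of both families are known to be common in the open chromatin of fibroblasts and other somatic cells.

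The reference promoters of the members (RefSeq, GRCm38.p6, which is mm10; 250 bases before to 50 bases after a start) were read first, since they show how the starts differ. Entries were found for 5 of the 6 genes, with a distal (outer) and a proximal (inner) start for Runx1 and Runx3, 1 start each for Runx2, Cebpa and Cebpb, and none for Cebpd. The outer starts of Runx1, Runx2 and Runx3 share an 18-base stretch with 2 copies of ACCACA, the core of the Runx recognition motif. It occurred in 3 of 21263 promoters, namely in these. The windows of 30 bases around it are printed with ACCACA in capitals, at chr16:92826025-92826054 (minus strand, positions 21 to 50 from the start), chr17:44814583-44814612 (minus strand, positions 16 to 45) and chr4:135120503-135120532 (plus strand, positions -142 to -113).
Runx1 outer start: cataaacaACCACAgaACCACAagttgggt
Runx2 outer start: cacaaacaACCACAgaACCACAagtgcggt
Runx3 outer start: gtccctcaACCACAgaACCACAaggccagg
ACCACA on either strand was found in 14.97% of all promoters, and 2 or more copies in 1.5%. The inner starts of Runx1 and Runx3 and the starts of Cebpa and Cebpb had no copy. A C/EBP motif written TTGCNNAA, searched on both strands, was found once in the Runx2 promoter and in no other promoter of the members, against 10.2% of all promoters. A match describes these letters and is not evidence of binding.

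The starts also differed in CpG content. The ratio of observed to expected CG dinucleotides was 0.137 at the outer start of Runx1, 0.143 at that of Runx2 and 0.264 at that of Runx3, below the median of 0.567 over all promoters. At the inner start of Runx1 it was 1.01, at the inner start of Runx3 1.01, at Cebpa 0.853 and at Cebpb 1.03, all above that median. The 250 bases before both Runx1 starts and before Cebpa are shown with each CG in capitals, from chr16:92826075-92826324, chr16:92697330-92697579 (both minus strand) and chr7:35119043-35119292 (plus strand), because the regions at these starts behaved differently below. They hold 2, 27 and 22 CG dinucleotides.
Runx1 outer start: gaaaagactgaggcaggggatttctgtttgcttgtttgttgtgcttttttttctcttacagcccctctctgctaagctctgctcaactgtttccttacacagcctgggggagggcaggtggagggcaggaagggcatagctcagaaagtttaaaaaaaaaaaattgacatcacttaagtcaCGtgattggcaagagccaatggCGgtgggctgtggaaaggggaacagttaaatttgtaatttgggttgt
Runx1 inner start: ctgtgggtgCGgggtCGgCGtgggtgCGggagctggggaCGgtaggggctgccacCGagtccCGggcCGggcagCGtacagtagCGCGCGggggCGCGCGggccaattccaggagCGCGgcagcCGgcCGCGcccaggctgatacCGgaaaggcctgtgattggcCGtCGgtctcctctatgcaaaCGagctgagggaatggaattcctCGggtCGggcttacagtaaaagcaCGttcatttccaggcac
Cebpa start: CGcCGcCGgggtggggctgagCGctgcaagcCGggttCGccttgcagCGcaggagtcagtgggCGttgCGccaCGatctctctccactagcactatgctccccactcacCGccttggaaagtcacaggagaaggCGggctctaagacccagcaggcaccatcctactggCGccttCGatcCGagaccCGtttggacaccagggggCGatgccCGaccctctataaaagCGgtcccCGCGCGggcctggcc

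The libraries held between 14310290 and 32229388 reads, of which 11.3% to 22.1% fell into regions in MEF and 4.49% to 8.12% in the other 9 libraries. Reads scattered evenly over the genome would account for 13.8% ± 5.54 (SD, n = 3) of the reads in regions in MEF. This share was 30.6% ± 1.75 for Stage 1, 39.9% ± 5.56 for Stage 2 and 48.9% ± 4.28 for iPSC. For this reason the sums of the 6 genes and the main regions are set beside the level expected from this background for regions of that width. Levels are in CPM, here counts relative to the summed counts of the features kept by a filter on low counts, after TMM scaling. This was done separately for gene sums and for single regions, so region values do not add up to a gene sum. A region assigned to several genes counts in the sum of each. Nothing in the labels says that replicates came from separate cultures or animals, so the spread behind each p-value is that of these libraries and may be technical. Scaled to whole libraries instead, which counts the reads outside regions, the median of all genes moved by -0.95 on the log2 scale from MEF to Stage 1 and by -1.70 from MEF to iPSC. Directions below are therefore relative to the reads in regions. Of 27 member and list genes called higher in iPSC than in MEF, 16 had a negative log2 fold change under that scaling, called or not. Of the 7 member regions called higher, 2 had a negative value, and neither was called. In bulk samples, fewer cells with an open region and a less open region per cell cannot be told apart. Summed over 10 fibroblast marker genes, accessibility was from 694 to 713 CPM in MEF and from 286 to 322 CPM in Stage 1, and over 10 pluripotency markers from 257 to 273 CPM and from 1128 to 1173 CPM. Both marker lists moved with the changes described below, none of their genes was at 0, and their part in those changes was not tested.

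In MEF, accessibility around 5 of the 6 genes was above that in Stage 1. Runx1, Runx2, Runx3, Cebpa and Cebpd were lower in Stage 1 than in MEF, by edgeR's quasi-likelihood test with Benjamini-Hochberg adjustment, and Cebpb was not called. No member was higher. Among all 17540 genes tested, 32.7% were lower, 32.4% were higher and 65.1% changed in either direction, so a call alone was common in this comparison. No member was called between Stage 1 and Stage 2 by edgeR (2 of 6 at an unadjusted p under 0.05) or DESeq2 (0 of 6 at that p), where 15.9% of all genes changed. By edgeR only Runx2 was called between Stage 2 and iPSC, as higher, where 9.42% of all genes changed and 5.8% were higher. Between MEF and iPSC, Runx1, Runx2, Cebpa and Cebpd were lower, against 32.2% of all genes lower and 65% changed in either direction. The median log2 fold change over all tested genes was -0.01 in both comparisons with MEF, which share the MEF libraries.

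**Figure D1:**
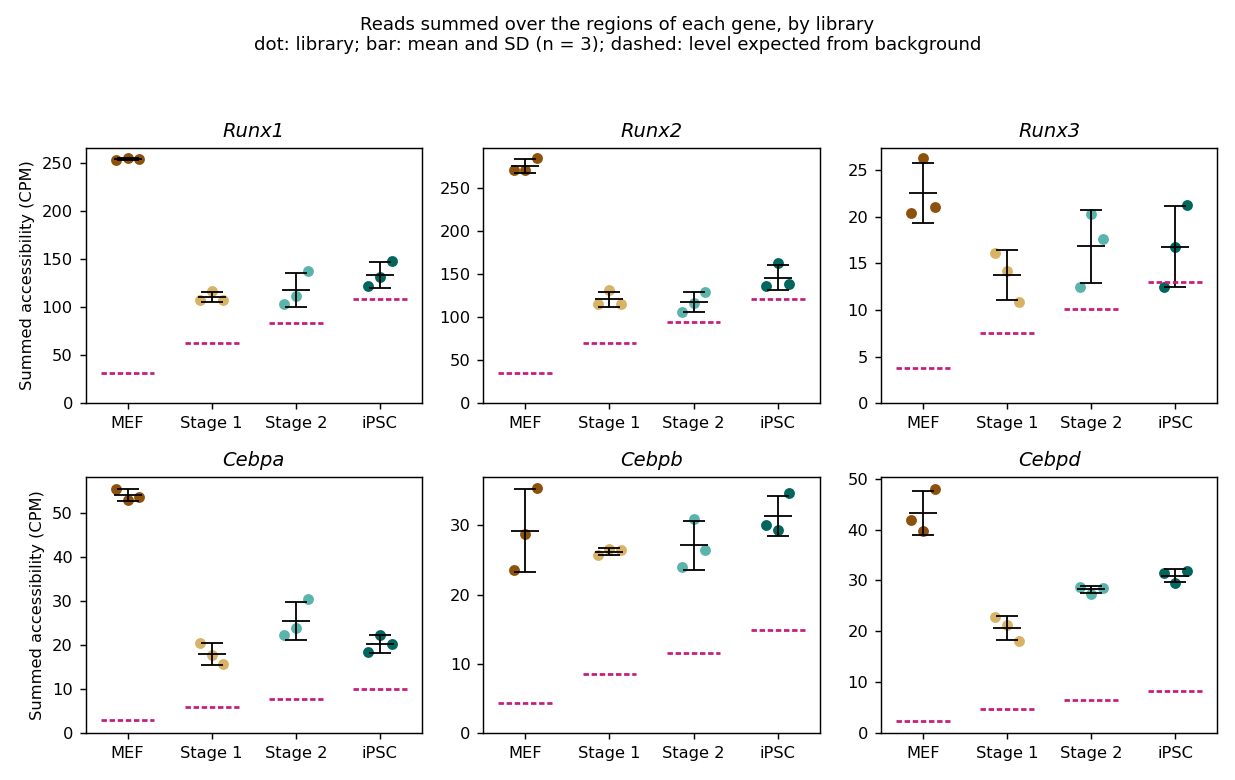
Accessibility summed over the regions of each gene (CPM, y axis) in the 4 groups (x axis); dots are the 3 libraries, black bars the mean and SD, and dashed pink lines the level expected from background. In Runx1 and Runx2 the MEF libraries lie at 253 CPM and above and all others at or below 163 CPM, while the dashed line rises from MEF to iPSC toward the iPSC level.

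Runx1, the regulator of blood formation, was measured at 253, 255 and 254 CPM in the 3 MEF libraries, 108, 117 and 107 CPM in Stage 1, 104, 111 and 138 CPM in Stage 2 and 122, 131 and 148 CPM in iPSC. All MEF libraries were above all others, and the 3 later groups overlapped in part. Stage 1 was lower than MEF by a log2 fold change of -1.20 (SE 0.09, adjusted p = 7.48e-19), and iPSC by -0.94 (SE 0.09, adjusted p = 4.07e-14). Against background the sum was 8.0 times the expected level in MEF, 1.77 times in Stage 1, 1.40 times in Stage 2 and 1.23 times in iPSC. The level in iPSC was thus close to what scattered reads alone would give, from 484 reads over the 3 libraries.

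Runx2, the bone factor, had the largest number of regions. It was at 270.2, 271 and 284 CPM in MEF, 115, 131 and 115.5 CPM in Stage 1, 106, 117 and 129 CPM in Stage 2 and 136, 163 and 138 CPM in iPSC. The MEF libraries again did not overlap any other group. Its log2 fold change was -1.19 (SE 0.09, adjusted p = 2.50e-19) from MEF to Stage 1 and -0.91 (SE 0.09, adjusted p = 2.97e-14) from MEF to iPSC. From Stage 2 to iPSC it rose by a log2 fold change of 0.32 (SE 0.11, adjusted p = 0.0409). This last call was lost under most alternatives (below), and the background expected for the same regions moved with it, from 93.8 CPM to 121 CPM; its part in the rise was not tested. Against background, Runx2 was at 7.76 times the expected level in MEF and 1.20 times in iPSC.

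Runx3 had low counts in every group. It was at 20.4, 26.2 and 21.1 CPM in MEF, 16.1, 14.2 and 10.8 CPM in Stage 1, 12.5, 20.2 and 17.6 CPM in Stage 2 and 12.5, 16.7 and 21.2 CPM in iPSC. MEF lay above Stage 1 in all libraries and overlapped iPSC. The log2 fold change was -0.75 (SE 0.22, adjusted p = 0.00269) from MEF to Stage 1, and without Stage 1 replicate 3 it was -0.55 and not called (adjusted p = 0.0647). From MEF to iPSC it was -0.46 (SE 0.22, adjusted p = 0.0606), which missed the threshold, while under whole-library scaling it was -2.14 and called (adjusted p = 2.81e-11). Against background the sum was at 5.93 times the expected level in MEF, 1.83 times in Stage 1 and 1.29 times in iPSC.

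Cebpa, which drives fat and myeloid differentiation, was at 55.7, 53.1 and 53.7 CPM in MEF, 20.5, 17.7 and 15.6 CPM in Stage 1, 22.3, 23.8 and 30.5 CPM in Stage 2 and 18.3, 22.2 and 20.3 CPM in iPSC. MEF libraries were more than 50 CPM and no other library reached 31 CPM. Its log2 fold changes were -1.60 (SE 0.17, adjusted p = 2.75e-13) to Stage 1 and -1.42 (SE 0.17, adjusted p = 3.41e-11) to iPSC, the largest falls among the 6 gene sums. Unlike a level at background, the iPSC level was 2.01 times the expected one, against 18.3 times in MEF. The rise from Stage 1 to Stage 2, a log2 fold change of 0.50 (SE 0.21, adjusted p = 0.0968), was not called although the libraries did not overlap.

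Cebpb, the factor of the early fat and inflammatory programs, was the member without a called change in its sum. Its values were 23.6, 28.7 and 35.4 CPM in MEF, 25.6, 26.5 and 26.5 CPM in Stage 1, 23.9, 31.0 and 26.5 CPM in Stage 2 and 30.1, 29.4 and 34.7 CPM in iPSC. The groups overlapped in all 4 comparisons, with a log2 fold change of -0.12 (SE 0.18, adjusted p = 0.577) to Stage 1 and 0.13 (SE 0.18, adjusted p = 0.512) to iPSC. Against background the sum nevertheless went from 6.75 times the expected level in MEF to 3.07 times in Stage 1, 2.36 times in Stage 2 and 2.12 times in iPSC. Under whole-library scaling it was called lower both in Stage 1 (-1.04, adjusted p = 0.000628) and in iPSC (-1.54, adjusted p = 1.68e-07). Relative to the reads in regions, the sum joins regions that moved in opposite directions. With only the region at the start, Cebpb was lower in iPSC than in MEF, by a log2 fold change of -0.69 (SE 0.24, adjusted p = 0.00964). Whether Cebpb differed from the other members in its change was not tested.

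Cebpd, a C/EBP gene that responds early to hormones and cytokines, rests on 1 region, which is also assigned to the neighbouring gene Spidr. It was at 42.0, 39.8 and 48.1 CPM in MEF, 22.7, 21.2 and 18.0 CPM in Stage 1, 28.8, 27.4 and 28.5 CPM in Stage 2 and 31.5, 29.4 and 31.8 CPM in iPSC. The MEF libraries were above all others and Stage 1 below all others. The log2 fold change from MEF was -1.06 (SE 0.17, adjusted p = 9.56e-08) in Stage 1 and -0.47 (SE 0.16, adjusted p = 0.00801) in iPSC. The step from Stage 1 to Stage 2 was 0.46 (SE 0.20, adjusted p = 0.107) and not called. Its iPSC level was 3.72 times the expected background. On the scale of single regions the same reads gave log2 fold changes from MEF of -1.29 in Stage 1 and -0.89 in iPSC. In the region fit without the filter these were -0.76 and -0.43, so the size of the change depends on the scale.

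The single regions show which parts of a gene the sums join. They were filtered and scaled apart from the gene sums, so fold changes of regions and of sums are not on the same scale. At Cebpa the regions had log2 fold changes of -1.85 and -1.78 from MEF to iPSC, while their sum had -1.42. The authors' interval lists name the stages in which a region was found: 54 of the 65 regions (83.1%) were in the MEF list alone, against 56.3% of all regions, and 8 (12.3%) were in the iPSC list, against 24.4%. By gene, the MEF list alone held 21 of 26 regions of Runx1, 26 of 29 of Runx2, 2 of 3 of Runx3, 1 of 2 of Cebpa and all 4 of Cebpb. Found in all 4 lists were 3 regions, at the inner start of Runx1, at a start of the gene Supt3 inside Runx2, and at the start of Cebpa. The 7 regions absent from the MEF list were 4 of Runx1, 2 of Runx2 and 1 of Runx3. Counted against background, 61 of 65 regions were above 2 times the expected level in MEF, against 79.4% of all regions. In Stage 1 that number was 21 (all regions: 46.1%), in Stage 2 it was 12 (43.1%) and in iPSC it was 11 (37.4%), so fewer regions above background in the later groups was common to regions at large. In iPSC, 40 of the 65 were at or below the expected level itself, against 36.6% of all regions.

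**Figure D2:**
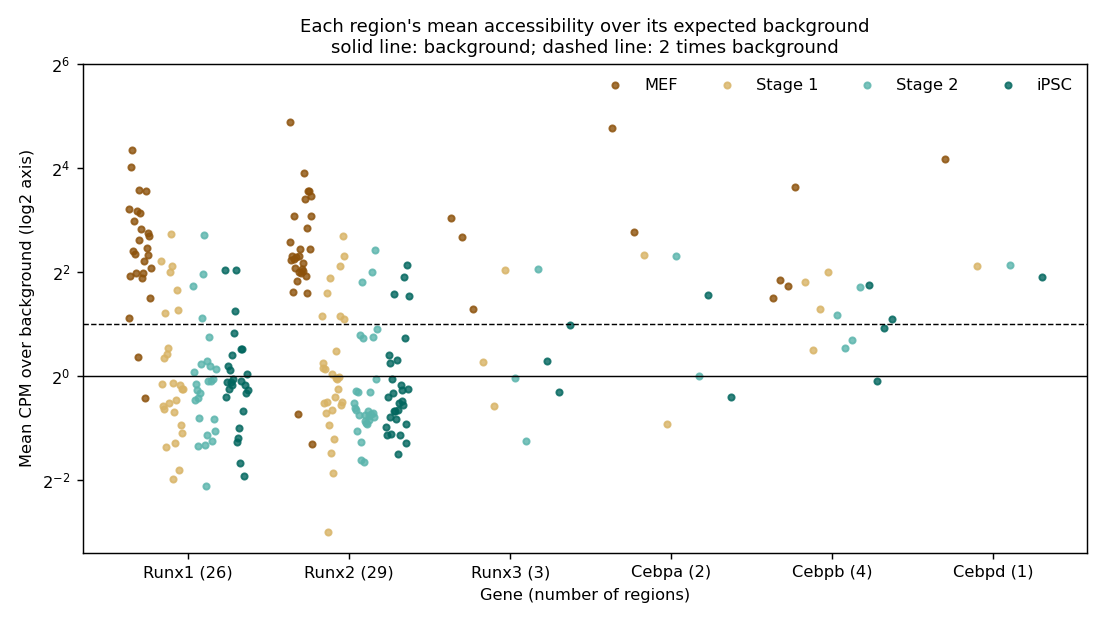
Mean CPM of each of the 65 regions over the level expected from background (y axis, log2 scale) for the 6 genes (x axis), with the 4 groups in colour; the solid line marks background and the dashed line 2 times background. In MEF 61 regions lie above the dashed line (79.4% of all counted regions do), and in iPSC 11 do (37.4%).

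After the filter on low counts 32 of the 65 regions could be tested, so these are not all members. The 33 others had too few reads to pass. Tested without the filter, 16 of those were lower and 1 higher in Stage 1 than in MEF (all regions: 34.2% lower, 34.5% higher). From MEF to Stage 1, 21 of the 32 were lower and 6 higher (all regions tested: 40.4% lower, 40% higher), with a median log2 fold change of -1.68 against 0.02 over all 71069 regions. From MEF to iPSC, 22 were lower and 7 higher (all regions: 43% lower, 39.1% higher). One region rose and another fell from Stage 1 to Stage 2, where 5.14% of all regions rose, 5.62% fell and 10.8% changed in either direction. None was called from Stage 2 to iPSC by edgeR (5 of 32 at an unadjusted p under 0.05) or DESeq2 (0 of 32 at that p), where edgeR called 1.85% of all regions. Tested without the filter, 36 of all 65 were lower and 11 higher in Stage 1 than in MEF (all regions: 34.2% lower, 34.5% higher), and 29 lower and 11 higher in iPSC (28.8% lower, 32.5% higher). Regions passed the filter mostly through high counts in MEF, so the share that fell is in part set by the choice.

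Runx1 shows the full range of behaviours within 1 gene. Its region with most MEF reads, at chr16:92620551-92621700, lies 205 kb downstream of the outer start, toward the end of the gene. It was at 60.9, 51.7 and 52.5 CPM in MEF, 3.69, 3.09 and 4.32 CPM in Stage 1, 6.92, 6.83 and 6.01 CPM in Stage 2 and 9.42, 7.53 and 13.0 CPM in iPSC. All later libraries were below all MEF libraries and near the background of 5.78 to 8.75 CPM, with a log2 fold change of -3.85 (SE 0.29, adjusted p = 5.53e-23) to Stage 1 and -2.48 (SE 0.23, adjusted p = 2.74e-17) to iPSC. The region with the largest fall to iPSC among those without overlap, chr16:92788301-92789000 and 37.4 kb downstream of the outer start, went from 15.4, 12.7 and 13.8 CPM in MEF to 2.35, 0.84 and 1.00 CPM in iPSC. It was chosen for that fall, which is given as a description.

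The starts of Runx1 differed from each other. At the outer start, chr16:92825701-92826200, MEF libraries had 11.1, 10.5 and 7.15 CPM, Stage 1 libraries 0, 2.06 and 1.44 CPM, Stage 2 libraries 1.89, 2.73 and 0.75 CPM and iPSC libraries 3.92, 4.18 and 1.00 CPM. A count of 0 in the first Stage 1 library allows up to 2.50 CPM, the value of 3 reads. The region was below the filter; tested without it, the log2 fold change was -2.51 (SE 0.59, adjusted p = 9.79e-05) to Stage 1 and -1.17 (SE 0.46, adjusted p = 0.0210) to iPSC. Its mean in each of the 3 later groups, from 4 to 11 reads, was below the level expected from background. This is the CpG-poor start with the pair of ACCACA motifs printed above.

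At the inner start, chr16:92696451-92697700, which is 129 kb downstream and CpG-rich, values were 41.5, 47.0 and 43.4 CPM in MEF, 43.3, 44.3 and 36.7 CPM in Stage 1, 28.3, 32.1 and 32.3 CPM in Stage 2 and 20.4, 24.2 and 23.0 CPM in iPSC. MEF and Stage 1 overlapped, Stage 2 lay below both, and iPSC lay below Stage 2. From MEF to Stage 1 the log2 fold change was -0.10 (SE 0.17, adjusted p = 0.608), a value whose direction depends on the processing: it was 0.19 without TMM, called as higher without the filter (0.43, adjusted p = 0.0297) and called as lower under whole-library scaling (-0.80, adjusted p = 0.0145). To iPSC it was -0.96 (SE 0.19, adjusted p = 4.45e-06), and the single steps from Stage 1 to Stage 2 and from Stage 2 to iPSC were not called (adjusted p = 0.176 and 0.303). In iPSC the region was still at 2.37 times background. Without this region, the sum of Runx1 was 223 CPM in MEF, 76.1 CPM in Stage 1, 90.4 CPM in Stage 2 and 112 CPM in iPSC, where the background would give 99.3 CPM.

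Regions of Runx1 that rose lay among those that fell. The region with the largest rise, chr16:92605651-92606100 and 220.2 kb downstream of the outer start, was absent from the MEF list; it went from 3.32, 1.94 and 3.34 CPM in MEF to 11.98, 9.28 and 10.1 CPM in Stage 1, 10.1, 11.6 and 6.77 CPM in Stage 2 and 15.7, 12.5 and 14.0 CPM in iPSC. All later libraries were above all MEF libraries, and the iPSC mean was 4.12 times background. Since the choice required a rise without overlap of MEF and iPSC libraries, that separation is a description. The region beside the inner start, chr16:92698551-92699100, was the one called higher from Stage 1 to Stage 2 (log2 fold change 0.90, SE 0.29, adjusted p = 0.0255). That call was lost under DESeq2 (0.94, adjusted p = 0.0721), under whole-library scaling (0.60, adjusted p = 0.431) and when any library of the 2 groups but Stage 1 replicate 1 was left out (from 0.71 without Stage 1 replicate 2 to 0.95 without Stage 1 replicate 3, adjusted p from 0.0552 to 0.172). It had 9.48, 12.2 and 8.11 CPM in MEF, 14.8, 8.25 and 13.0 CPM in Stage 1 and 23.3, 21.9 and 23.3 CPM in Stage 2, with 15.7, 16.7 and 19.04 CPM in iPSC. Stage 2 was the group with the highest libraries. Against MEF its rise to iPSC (log2 fold change 0.75, adjusted p = 0.00898) turned to -0.51 under whole-library scaling. A neighbour at chr16:92685701-92686200 rose from a mean of 1.90 CPM in MEF to 9.97 CPM in Stage 1 and was at 6.76 CPM in iPSC, 1.78 times background. This pair of regions was named after its values were seen.

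**Figure D3:**
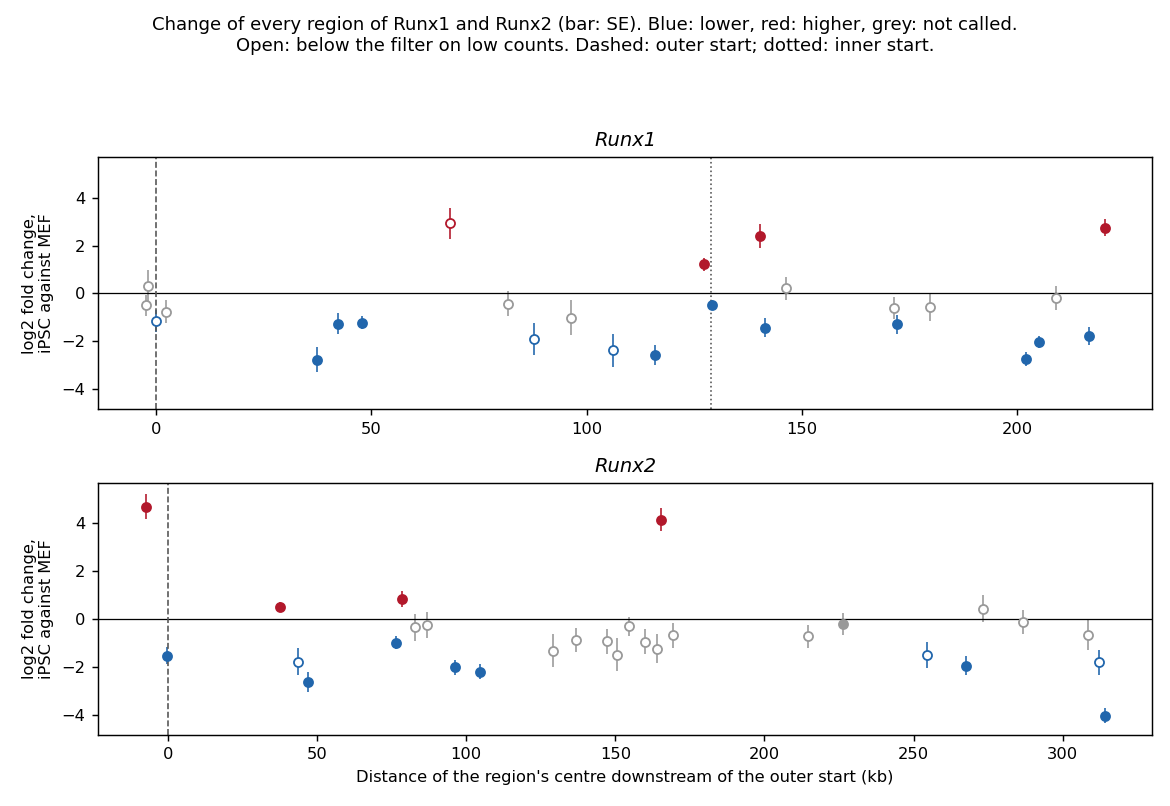
The log2 fold change from MEF to iPSC with its SE (y axis) of every region of Runx1 (upper) and Runx2 (lower) against the distance of its centre downstream of the outer start (kb, x axis), fitted without a filter on low counts; open circles are regions below the filter, and colour marks calls. Of 26 Runx1 regions 13 were lower and 4 higher, and of 29 Runx2 regions 10 were lower and 4 higher. Over all regions in the same fit, 28.8% were lower and 32.5% higher. Rises and falls lay side by side along both genes.

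Runx2 had the largest fall of any tested member region. At chr17:44500151-44501000, 314 kb downstream of its start and close to the end of the gene, MEF libraries had 82.4, 70.5 and 68.2 CPM, Stage 1 libraries 3.69, 10.3 and 14.4 CPM, Stage 2 libraries 1.89, 4.10 and 5.26 CPM and iPSC libraries 1.57, 4.18 and 4.01 CPM. The means were 29.3 times background in MEF, 2.22 times in Stage 1 and 0.50 times in iPSC. Chosen as the largest fall to iPSC (log2 fold change -4.52), it was also the one region called lower from Stage 1 to Stage 2, at -1.41 (SE 0.43, adjusted p = 0.0208). That call was lost under DESeq2 (-1.38, adjusted p = 0.0738) and when any of 4 libraries was left out. The value was -1.40 without Stage 1 replicate 2 (adjusted p = 0.0603), -0.90 without Stage 1 replicate 3 (0.374), -1.07 without Stage 2 replicate 1 (0.149) and -1.5 without Stage 2 replicate 2 (0.0529).

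At the start of Runx2, chr17:44814551-44815300, accessibility was 18.5, 19.1 and 18.6 CPM in MEF, 6.45, 13.4 and 4.32 CPM in Stage 1, 5.03, 3.41 and 5.26 CPM in Stage 2 and 1.57, 5.85 and 7.01 CPM in iPSC. Every later library was below the MEF libraries, which lay within 1 CPM of each other. The log2 fold change was -1.29 (SE 0.32, adjusted p = 0.000147) to Stage 1, and -0.76 (adjusted p = 0.0524) without Stage 1 replicate 3, and it was -2.0 (SE 0.36, adjusted p = 3.45e-07) to iPSC, where the region was at 0.84 times background. Like the outer start of Runx1, it is CpG-poor and carries the shared stretch.

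The region of Runx2 with most reads in iPSC belongs to another gene as well. It lies at chr17:44776601-44777800, 37.4 kb inside Runx2, and holds an annotated start of Supt3, which encodes a subunit of the SAGA transcription coactivator. It was at 36.7, 41.8 and 39.1 CPM in MEF, 36.0, 38.2 and 41.8 CPM in Stage 1, 42.8, 43.7 and 36.1 CPM in Stage 2 and 47.9, 43.5 and 28.1 CPM in iPSC. The groups overlapped throughout. Its log2 fold change was -0.01 (SE 0.18) to Stage 1 and 0.05 (SE 0.18, adjusted p = 0.811) to iPSC, and without the filter it was called higher in iPSC, at 0.51 (adjusted p = 0.0124), and under whole-library scaling lower, at -1.22 (adjusted p = 0.000189). Without it the Runx2 sum was 247 CPM in MEF and 108 CPM in iPSC, where the background alone would give 112 CPM.

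Rises in Runx2 were found at 2 regions absent from the MEF list. The largest, chr17:44821851-44822350, lies 7.47 kb upstream of the Runx2 start and is also assigned to Supt3. It had 0, 0.83 and 0.95 CPM in MEF, a total of 5 reads, and 8.30, 17.5 and 11.53 CPM in Stage 1, 6.29, 4.78 and 6.77 CPM in Stage 2 and 10.2, 10.9 and 12.02 CPM in iPSC. All later libraries were above all MEF libraries, and the iPSC mean was 2.90 times background. The region was chosen for its rise without overlap of MEF and iPSC libraries, so that separation is a description. The other, named after its values were seen, lies 165 kb downstream at chr17:44649001-44649500 and went from a mean of 0.88 CPM in MEF to 9.22, 11.1 and 11.3 CPM in the later groups.

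Runx3 held 3 regions. At its outer start, chr4:135120201-135120900, values were 14.7, 21.3 and 14.8 CPM in MEF, 6.45, 4.12 and 2.16 CPM in Stage 1, 3.15, 6.15 and 3.76 CPM in Stage 2 and 5.49, 5.85 and 8.02 CPM in iPSC. Every later library was below every MEF library and the group means were from 0.98 to 1.21 times background, with a log2 fold change of -2.05 (SE 0.37, adjusted p = 4.40e-07) to Stage 1 and -1.42 (SE 0.33, adjusted p = 6.74e-05) to iPSC. The CpG-rich inner start had no counted region, and the nearest one lay 1695 bp away, at chr4:135150351-135150850. That region had 4.50, 3.04 and 3.34 CPM in MEF, 11.98, 10.3 and 8.64 CPM in Stage 1, 9.44, 16.4 and 13.5 CPM in Stage 2 and 6.28, 9.20 and 7.01 CPM in iPSC. It was above the MEF level in every later library, with a log2 fold change of 1.44 (SE 0.37, adjusted p = 0.000275) to Stage 1. To iPSC the rise was 1.00 (SE 0.40, adjusted p = 0.0176), with -0.26 under whole-library scaling, and it was not called without MEF replicate 2 (adjusted p = 0.0524) or iPSC replicate 2 (adjusted p = 0.0834). Against background this region was at 2.45 times the expected level in MEF, 4.11 times in Stage 1, 4.13 times in Stage 2 and 1.97 times in iPSC, so its higher CPM in iPSC was no rise over background. In Stage 1 the gene's sum joins a fall at the outer start and a rise near the inner one, and the latter was at 0.72 and not called under whole-library scaling (adjusted p = 0.116).

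The regions at the starts of the Cebp genes stayed above background in every group. At Cebpa, chr7:35118701-35119500, accessibility was 67.0, 65.0 and 60.6 CPM in MEF, 24.9, 17.5 and 18.0 CPM in Stage 1, 20.8, 23.9 and 30.8 CPM in Stage 2 and 16.5, 19.2 and 18.0 CPM in iPSC. The fall was a log2 fold change of -1.68 (SE 0.19, adjusted p = 1.97e-13) to Stage 1 and -1.85 (SE 0.20, adjusted p = 1.03e-14) to iPSC. From 27.1 times background in MEF it went to 5.01 times in Stage 1 and 2.94 times in iPSC. The only other region of Cebpa, 8.01 kb downstream and named to complete the gene, went from a mean of 12.1 CPM in MEF to 3.44 CPM in iPSC, 0.75 times background.

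At Cebpb, chr2:167688551-167689350, values were 26.5, 29.0 and 32.0 CPM in MEF, 20.3, 10.3 and 17.3 CPM in Stage 1, 15.1, 19.1 and 15.8 CPM in Stage 2 and 14.1, 10.03 and 15.03 CPM in iPSC. All MEF libraries were above all others. The log2 fold change to iPSC was -1.15 (SE 0.25, adjusted p = 1.62e-05). To Stage 1 it was -0.83 (SE 0.23, adjusted p = 0.000896), a call that was lost without the filter (-0.31, adjusted p = 0.254), in a fit of MEF and Stage 1 alone (-0.47, adjusted p = 0.0686) and without Stage 1 replicate 2 (-0.52, adjusted p = 0.0617). A region 8.79 kb upstream, chr2:167679901-167680350, moved the other way, from 2.37, 4.15 and 4.77 CPM in MEF to 12.6, 11.7 and 10.02 CPM in iPSC. It was at 3.34 times background in iPSC and already above 2 times background in MEF. The background expected for the gene's sum went from 4.33 CPM in MEF to 14.8 CPM in iPSC, and its part in the rise was not tested. The region was chosen as the largest rise of this gene, and under whole-library scaling the change was 0.43 and not called (adjusted p = 0.345). The Cebpd region, chr16:15886651-15887800, was at 59.5, 57.8 and 65.3 CPM in MEF, 28.6, 24.7 and 21.6 CPM in Stage 1, 33.4, 31.4 and 31.6 CPM in Stage 2 and 33.7, 30.9 and 33.1 CPM in iPSC on the scale of single regions.

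**Figure D4:**
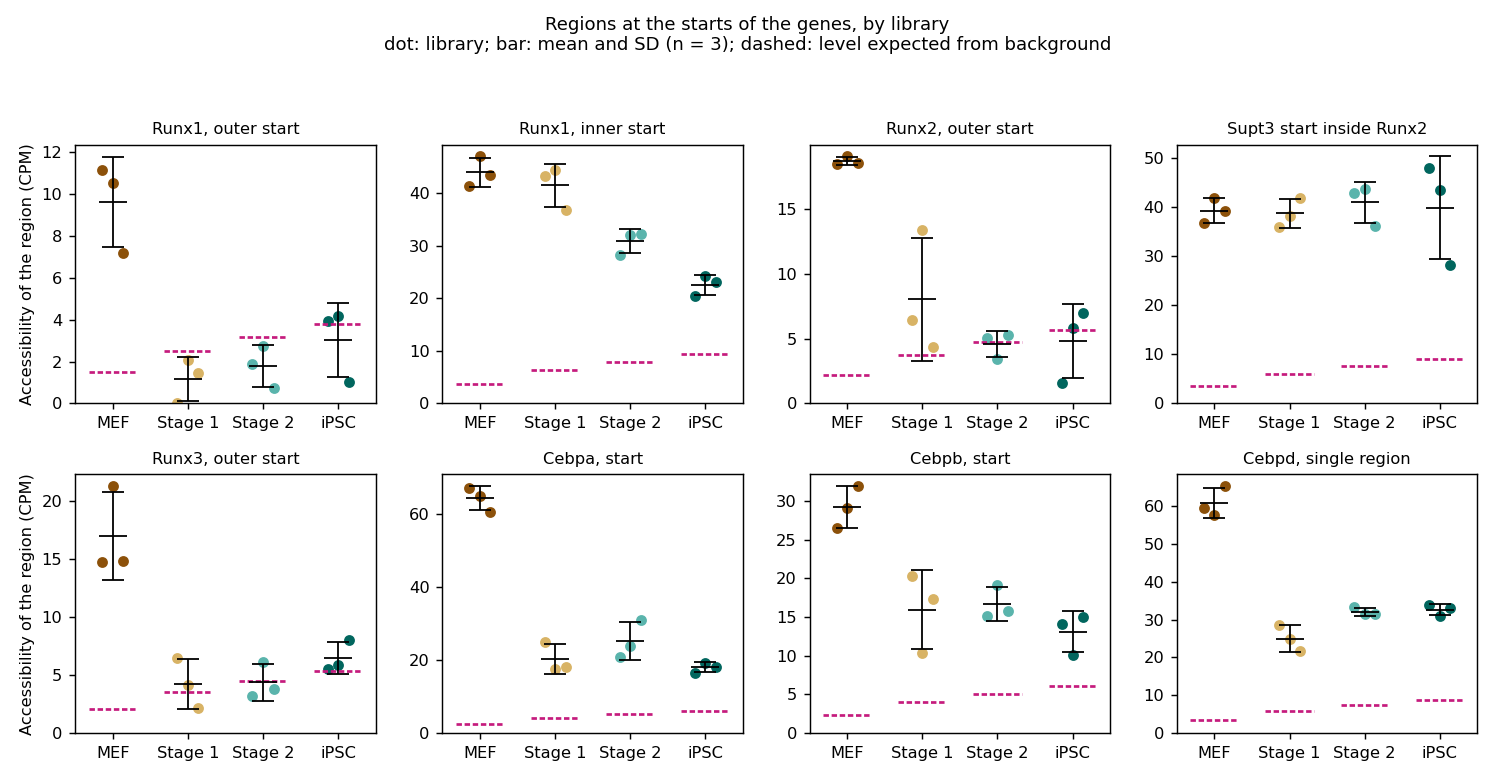
Accessibility of 8 regions (CPM, y axis) in the 4 groups (x axis): those at the starts of Runx1, Runx2, Runx3, Cebpa and Cebpb, the Supt3 start inside Runx2, and the Cebpd region; dots are libraries, bars the mean and SD (n = 3), and dashed lines the expected background. The outer Runx starts reach the dashed line by iPSC (0.80, 0.84 and 1.21 times background), and the inner Runx1 start, Cebpa, Cebpb and Cebpd stay above it (2.37, 2.94, 2.15 and 3.73 times).

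Across these starts, the 3 CpG-poor outer Runx promoters were at 0.80, 0.84 and 1.21 times background in iPSC, while the CpG-rich starts of Cebpb, Runx1 (inner) and Cebpa were at 2.15, 2.37 and 2.94 times. The inner start of Runx3, CpG-rich as well, had no counted region, so its level over background is unknown. With so few starts this is a description without a test. In MEF the outer Runx starts were at 6.48, 8.43 and 8.16 times background and thus open in fibroblasts as well. The CpG-rich starts had higher CPM in MEF, so the groups of starts began from unlike levels. Fitted without the filter, the log2 fold changes from MEF to iPSC were -1.17, -1.54 and -0.95 at the outer starts of Runx1, Runx2 and Runx3. At Cebpb, Runx1 (inner) and Cebpa they were -0.68, -0.50 and -1.38, so the sizes of the falls overlapped.

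Whether regions of 1 gene changed unequally was tested with edgeR's diffSpliceDGE, an approach chosen after the values were seen, for iPSC against MEF. Of 31 member regions tested, 10 changed more upward and 11 more downward than the rest of their gene, where 62.1% of all regions tested were called. The inner start of Runx1 was above the rest of its gene by 0.50 on the log2 scale (adjusted p = 0.0362), and the Supt3 start was above the rest of Runx2 by 1.39 (adjusted p = 6.38e-12). The region with most MEF reads took 15.4% ± 1.52 (SD, n = 3) of the gene's reads in MEF and 7.06% ± 1.53 in iPSC at Runx1, and 19.04% ± 2.16 against 2.10% ± 0.909 at Runx2. At Cebpa its share was 84.1% ± 0.998 in MEF and 84.0% ± 1.79 in iPSC. Exact permutation tests, two-sided, gave p = 0.1 for Runx1, Runx2, Runx3 and Cebpb (adjusted over 5 genes, 0.125), the smallest value that 3 against 3 libraries allow, and p = 0.9 for Cebpa. The tested region was chosen by its reads in the same MEF libraries, which favours a higher MEF share in advance. These p-values are therefore no support for a difference, and the shares are a description.

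Genes that work with these factors or are known as their targets were read from lists of their sums, for iPSC against MEF (all genes: 32.2% lower, 32.8% higher). Of 10 cofactors of Runx proteins, 5 were lower and 1 higher, with a median log2 fold change of -0.34. Cbfb, the obligate partner of all Runx proteins, fell from 118 CPM to 53.7 CPM (log2 fold change -1.14, SE 0.13, adjusted p = 1.17e-12), and the histone deacetylase gene Hdac4 fell from 201 CPM to 110 CPM (-0.87, SE 0.10, adjusted p = 5.49e-12). The corepressor genes Tle3 and Tle4 and the kinase gene Hipk2 were the other 3 that fell, and Cbfa2t2 rose by 0.23 (adjusted p = 0.0234), a call lost under DESeq2 and turned to -1.45 under whole-library scaling. Of 7 partners and regulators of C/EBP, 3 fell and none rose: Cebpg (-0.98, SE 0.17, adjusted p = 4.88e-07), the stress factor gene Atf4 (-0.46, SE 0.12, adjusted p = 0.000518) and Ddit3 (-0.35, adjusted p = 0.00710).

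Target lists did not move in 1 direction. Of 8 tested osteoblast genes linked to Runx2, 3 rose and 2 fell: Alpl, the alkaline phosphatase gene that is also a pluripotency-associated marker, rose from 8.22 CPM to 43.7 CPM (log2 fold change 2.41, SE 0.19, adjusted p = 3.17e-18), Spp1 from 36.8 CPM to 106 CPM (1.51, SE 0.12, adjusted p = 9.83e-19) and Dlx5 by 1.43 (adjusted p = 2.12e-09). Under whole-library scaling Alpl stayed higher (0.73), while Spp1 was at -0.19 and Dlx5 at -0.26. The collagen genes Col1a1 and Col1a2 fell, by 0.86 and 0.66 on the log2 scale. Of 10 fat cell genes linked to C/EBP, 2 rose and 3 fell. Pparg, the master regulator of fat cells, fell from 84.1 CPM to 44.1 CPM (-0.96, SE 0.14, adjusted p = 4.38e-09), and Retn rose from 12.9 CPM to 29.5 CPM (1.19, SE 0.22, adjusted p = 1.87e-06; -0.49 under whole-library scaling). Of 7 tested inflammatory genes linked to C/EBP, 5 fell and none rose, among them Il6 (31.8 CPM to 6.47 CPM, -2.28, SE 0.26, adjusted p = 3.32e-12) and the chemokine gene Ccl2 (102 CPM to 22.2 CPM, -2.23, SE 0.16, adjusted p = 5.24e-21). In iPSC both were below the level expected from background, which was 7.22 CPM for Il6 and 32.9 CPM for Ccl2.

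Runx and C/EBP genes also mark other cell types that an unsorted culture could hold. Over all genes, 32.8% were higher and 32.2% lower in iPSC than in MEF, and 65% changed in either direction. These shares apply to each marker list below. Of 9 tested blood cell markers 6 rose and 3 fell from MEF to iPSC, with summed levels from 140 to 143 CPM in MEF and from 183 to 202 CPM in iPSC. The background expected for this list went from 29.5 CPM to 101 CPM, a larger step than that of the sum, and 4 of the 6 (Elane, Itgam, Ptprc and Spi1) turned negative under whole-library scaling. Cd48 (0.946 CPM to 9.99 CPM, log2 fold change 3.34, SE 0.46) and Ikzf1 (8.55 CPM to 59.8 CPM, 2.76, SE 0.17) rose, also under that scaling (1.68 and 1.06). The 3 that fell were Csf1r (log2 fold change -1.31), Mpo (-1.20) and Csf3r (-0.999). They were lower under whole-library scaling as well (-2.99, -2.88 and -2.69). Of 8 endothelial markers 4 rose and 3 fell, with summed levels from 322 to 333 CPM in MEF and from 353 to 389 CPM in iPSC. Here the expected background went from 58.1 CPM to 199 CPM, again more than the sum, and 3 of the 4 turned under whole-library scaling (Fli1 to -0.91, Pecam1 to -0.64 and Tek to -1.23). Emcn fell (43.0 CPM to 6.06 CPM, -2.82, SE 0.25) and Cldn5 rose (6.74 CPM to 36.6 CPM, 2.50, SE 0.22). No gene of either list with a region was at 0, and the part of such cells in the MEF levels was not tested. Of 10 fibroblast markers 9 fell and 1, Pdgfra, rose (to -0.99 under whole-library scaling), with Twist2 (104 CPM to 19.96 CPM) and Dcn (19.2 CPM to 6.29 CPM) the largest falls, both to below their expected background in iPSC (28.2 CPM and 9.03 CPM). All 10 pluripotency markers rose relative to the reads in regions, and under whole-library scaling Nanog (-0.56), Pou5f1 (-0.82) and Utf1 (-0.42) turned negative. Zfp42 (2.88 CPM to 67.6 CPM) and Dppa5a (7.89 CPM to 135 CPM) had the largest rises.

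Over the 12 libraries, the genes on other chromosomes whose log2 CPM followed a member most closely, among genes with a mean of at least 20 CPM, were listed without a test, since all values share the libraries and their background. Runx1 was followed by Lrmda (Pearson r = 0.995), Mrtfa (0.992) and Fmnl3 (0.992), and Runx2 by Psd3 (0.993), Fhl2 (0.989) and Slc14a2 (0.988). For Cebpa they included Hspa4 (0.992) and Gadd45g (0.977), and for Cebpd they were Plekhm3 (0.975), Basp1 (0.974) and Ctif (0.973). Runx3 (Tmem138, 0.946; Ccm2, 0.926; Prrt1, 0.914) and Cebpb (Ptk2b, 0.858; Akap5, 0.837; Phkg1, 0.798) had lower values.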

How the data were processed

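The authors deposited read counts per region for each library and an interval list per stage, without scores. The submitters' processing notes name the build mm10 and, among tools, HTSeq 0.5.4p3, DESeq2 1.12.4, Bowtie2 2.2.6, SAMtools 0.1.19 and Picard 2.6.0. Which peak caller was run, and how duplicates and read ends were treated, is not given in the sources used here. Reads in no region or in several (0.0311% to 0.230% of a library) stayed out of library sizes. Depth was 14310290 to 32229388 reads per library; floors cover counting error only.

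Groups came from the labels. Regions were joined to genes by RefSeq spans (GRCm38.p6) within 10 kb. Counts of single regions and of gene sums were each fitted over all features with edgeR 4.0.16 (R 4.3.3): robust quasi-likelihood F tests, TMM, filterByExpr (minimum count 10, minimum total 15), 1 model of 4 groups, Benjamini-Hochberg adjusted p under 0.05. Background was the read density outside regions, over each chromosome's span to its last gene or region. The scripts were run on simulated data in which few features changed, up and down alike. That does not test scaling or calls under changes as broad as those here. Alternatives were RLE or whole-library scaling, no TMM (added after seeing the data), DESeq2 1.42.0, no filter, 2 groups only, replicate block, narrower gene links and leaving out each library. Exons and introns were not used, since the gene table gives spans only.

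The members and lists were chosen with earlier results of these data known. Named were all 6 genes. Of each gene's regions, those with most reads in MEF and in iPSC, at a start, and with the largest rise and fall to iPSC were named (called, libraries without overlap, mean of at least 2 log2 CPM). Of each list, the 2 genes with the largest called change were named, and the 3 genes most alike per member, of which 1 is not reported here.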

Additional observations from a re-analysis of the deposited data

How the results depend on the processing

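Of 376 values of gene sums under alternatives, 330 kept their direction and side of the threshold, 14 lost the call, 8 gained one and 24 changed sign; where no construction of the alternative shows it, the cause was not tested. All values are log2 fold changes. Runx2 from Stage 2 to iPSC was at 0.30 with RLE size factors, without TMM, with DESeq2 and without the filter, 0.28 with regions in the span, 0.29 with regions of no other gene and 0.16 with regions at the start, none called. Whole-library scaling, which lowers all later groups, gave -1.04 (called) for Cebpb in Stage 1 against MEF. From Stage 1 to Stage 2 it gave -0.31 (Runx1), -0.10 (Runx3) and -0.35 (Cebpb), from Stage 2 to iPSC -0.17 (Runx1), -0.030 (Runx2), -0.15 (Cebpb) and -0.23 (Cebpd), none called, and from MEF to iPSC -2.14 (Runx3) and -1.54 (Cebpb), both called. The inner Runx1 start and the Supt3 start were then lower in Stage 1 (-0.80 and -0.72, both called), the Supt3 start fell by 1.22 to iPSC, and the region near the inner Runx3 start had -0.26. With regions at the start only, Stage 1 against MEF gave -0.17 for Runx1 (not called) and -0.65 for Cebpb (called); Stage 2 against Stage 1 gave -0.24 for Runx1; iPSC against Stage 2 gave -0.20 (Runx1), 0.69 (Runx3) and -0.22 (Cebpb); iPSC against MEF gave -0.96 (Runx3) and -0.69 (Cebpb), both called. With regions in the span only, Cebpb was at -0.58 in Stage 1 and -0.69 in iPSC against MEF, both called, and at -0.25 in iPSC against Stage 2, and Runx2 was at 0.038 in Stage 2 against Stage 1. With regions of no other gene, Cebpb was at -0.0089 in Stage 2 against Stage 1 and Runx3 at -0.58 in iPSC against MEF, called.

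Of 52 member regions tested under whole-library scaling, 42 were lower in Stage 1 and 44 in iPSC than in MEF (all regions tested: 60.2% and 67.6% lower). In iPSC 3 were higher than in MEF (all regions: 17.2%), and 0 were higher in Stage 2 than in Stage 1 (all regions: 0.841%). Without the filter the counts were 36 lower and 11 higher in Stage 1 than in MEF (all regions: 34.2% lower, 34.5% higher). In iPSC 29 were lower and 11 higher (all regions: 28.8% lower, 32.5% higher). Between Stage 1 and Stage 2, DESeq2 called 0 member regions in either direction, and 3276 among all regions. From MEF to Stage 1, the inner Runx1 start was at 0.19 without TMM, 0.43 without the filter and 0.27 with 2 groups only, and the Supt3 start at 0.27, 0.51 and 0.35.

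Leaving out each library in turn gave, from MEF to Stage 1, -0.88 to -0.55 for Runx3, -0.24 to 0.0072 for Cebpb, -0.062 to 0.18 for the inner Runx1 start and 0.018 to 0.15 for the Supt3 start. Stage 2 against Stage 1 gave -0.059 to 0.17 (Runx1), -0.13 to 0.032 (Runx2) and -0.083 to 0.14 (Cebpb), and 0 to 1 regions in each direction. The range was 0.23 to 0.37 (Runx2) and -0.21 to 0.17 (Runx3) for iPSC against Stage 2, and -0.64 to -0.27 (Runx3), -0.028 to 0.26 (Cebpb) and -0.031 to 0.37 (Supt3 start) for iPSC against MEF. The call of Runx3 from MEF to Stage 1 was lost without Stage 1 replicate 3, and Runx3 was called from MEF to iPSC without MEF replicate 1 (-0.58) or iPSC replicate 3 (-0.64). Runx2 kept its call from Stage 2 to iPSC only without Stage 2 replicate 3.

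Same-numbered libraries did not visibly deviate together (correlations from -0.105 to 0.107 over genes, and from -0.131 to 0.137 for libraries with different numbers). Deviations from means of 3 libraries cannot show whether same-numbered samples share a culture or animal, so pairing stays unknown. With a replicate block no call of a gene sum changed (Runx1 -1.21 and -0.94, Runx2 -1.20 and -0.91, Runx3 -0.73 and -0.46, Cebpa -1.61 and -1.42, Cebpb -0.14 and 0.13, Cebpd -1.07 and -0.47 in Stage 1 and iPSC against MEF), and the Supt3 start was at 0.0088 in Stage 1 against MEF. Over all genes, 2781 and 1653 were called in Stage 2 against Stage 1 and in iPSC against Stage 2, against 1637 and 657 with DESeq2 and 1255 and 41 with whole-library scaling. Over all regions, the counts were 7650 and 1318, against 3276 and 318 with DESeq2. Low counts in the later groups limit single regions: several rest on fewer than 10 reads per group.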
